A study of Ovis aries with 10 samples.

Results

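CXCR2 and IL21R are 2 receptors on the surface of leukocytes, described here in peripheral blood mononuclear cells (PBMCs) of fetal sheep. They were chosen by measured values, because both are among the 80 genes that the authors' comparison of Day 5 with Day 1 selected, and they were picked from those 80 as leukocyte receptors. The day contrast therefore selected both genes, so their values across the days are given as a description, with no test. Of these 2 genes, 1 (CXCR2) could be followed in every library, in a table of 30620 genes listed by Ensembl identifier. IL21R is listed by symbol only, so it has a pooled value for each day and no replicate error.

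CXCR2 is a G protein-coupled receptor for chemokines such as CXCL8, and it is best known on neutrophils, which follow these chemokines out of the marrow and into inflamed tissue. IL21R binds interleukin 21, pairs with the common gamma chain and signals through JAK kinases and STAT3 in B cells, T cells and natural killer cells. In B cells this pathway is known for guiding antibody responses and the formation of plasma cells.

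The study set up a model of inflammation in the fetus by repeated endotoxin challenge, and the PBMC transcriptome was among its readouts. Catheterised singleton fetuses of Columbia-Rambouillet crossbred ewes received E. coli lipopolysaccharide (LPS), the endotoxin of the Gram-negative outer membrane, into a vein. PBMCs were separated from blood of the same 5 fetuses on both days, giving 10 RNA-seq libraries from stranded mRNA. Day 1 libraries (n = 5) came from 123 days of gestation, before any LPS bolus. Day 5 libraries (n = 5) came from 127 days of gestation and followed 3 boluses, with doses of 0.3 µg (Day 1), 1.5 µg (Day 3) and 3 µg (Day 4), and were drawn ahead of that day's bolus. No library here comes from a fetus without LPS, so LPS exposure, the added days of gestation and the time since surgery cannot be told apart. Per-library values are regularized-log (rlog) values, which are log2 counts scaled for library size and drawn toward the mean of each gene. They hold no counts, so the depth of the libraries is unknown.

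CXCR2 (ENSOARG00020036084) lies on the plus strand of chromosome 2 in ARS-UI_Ramb_v2.0, from 220184531 to 220207627, a span of 23097 bases. In the RefSeq gene order of a later sheep assembly, ARS-UI_Ramb_v3.0, its neighbours are RUFY4 and a protein-coding gene without a symbol, LOC101108811. From fetus 1 to fetus 5, the CXCR2 rlog values of Day 1 were 4.78, 4.54, 4.57, 4.94 and 4.79. Taken in the same order, those of Day 5 were 5.28, 5.64, 6.40, 5.88 and 6.62. The days did not overlap, and the lowest Day 5 library (fetus 1) lay 0.35 above the highest Day 1 library (fetus 4). The Day 1 mean was 4.72 ± 0.16 (SD, n = 5) and the Day 5 mean 5.97 ± 0.55 (SD, n = 5). The log2 difference was 1.24 (SE 0.23), on the contrast that selected the gene.

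**Figure D1:**
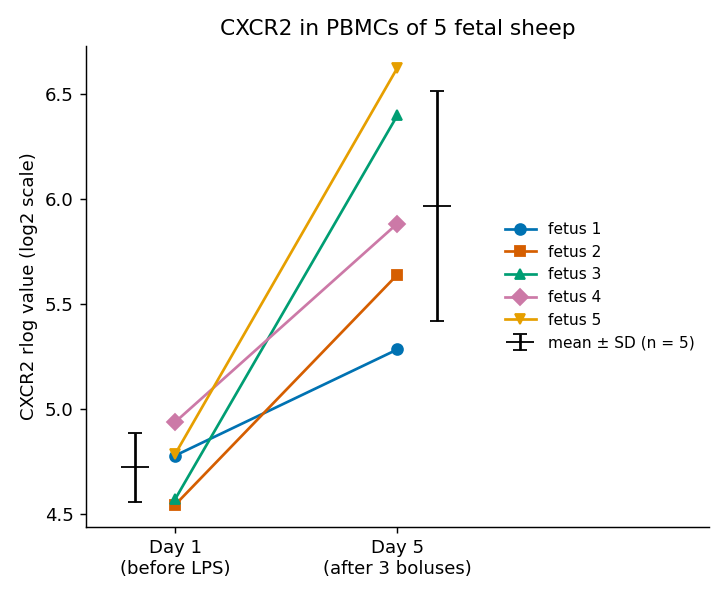
CXCR2 rlog values (vertical axis, log2 scale) on Day 1 and Day 5, with 1 coloured line and marker for each of 5 fetuses and black bars for the mean ± SD of each day (n = 5). All 5 lines slope upward, from a narrow range around 4.72 on Day 1 to a wide one around 5.97 on Day 5.

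CXCR2 was higher on Day 5 in 5 of 5 fetuses, but by unequal amounts. The within-fetus change in rlog value was, in the same order of fetuses, 0.50, 1.09, 1.83, 0.94 and 1.84 (SD 0.58, n = 5). Fetuses 3 and 5 changed most and fetus 1 least. The fetuses did not keep their order between the days: fetus 4 was highest on Day 1 and fetus 5 on Day 5, while fetus 2 was lowest on Day 1 and fetus 1 on Day 5. Without fetus 1 the difference was 1.43, and without fetus 5 it was 1.09, and leaving out any of the others gave a value between these. The CXCR2 rlog values also spread more widely between fetuses on Day 5. The SD of CXCR2 on Day 5 was 3.33 times that on Day 1, a ratio that 11.2% of all genes matched or passed. Its SD exceeded that of 42.3% of genes on Day 1 and 95.9% on Day 5.

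Over all 20046 genes not listed at 0 in every library, 94 genes (0.469%), CXCR2 among them, had every Day 5 library above every Day 1 library. Days that did not overlap, counted in both directions, were found in 231 genes. A larger set, 707 genes (3.53%), was higher on Day 5 in every fetus. CXCR2 was 1 of 19 genes (0.0948%) with a mean difference of at least 1.24, and 18 genes had a larger one. By limma's moderated test with Benjamini-Hochberg adjustment, 4 genes (0.02%) passed an adjusted p of 0.05 and a fold change of 1.5, and 27 did with a replicate block for the fetus. CXCR2 was in neither set, and it did pass with the lowest 25% of genes removed and with median centring. As CXCR2 was picked on this contrast, passing or not is no test of it. These shares are the background for a gene picked on this contrast, and nothing further is read from them.

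**Figure D2:**
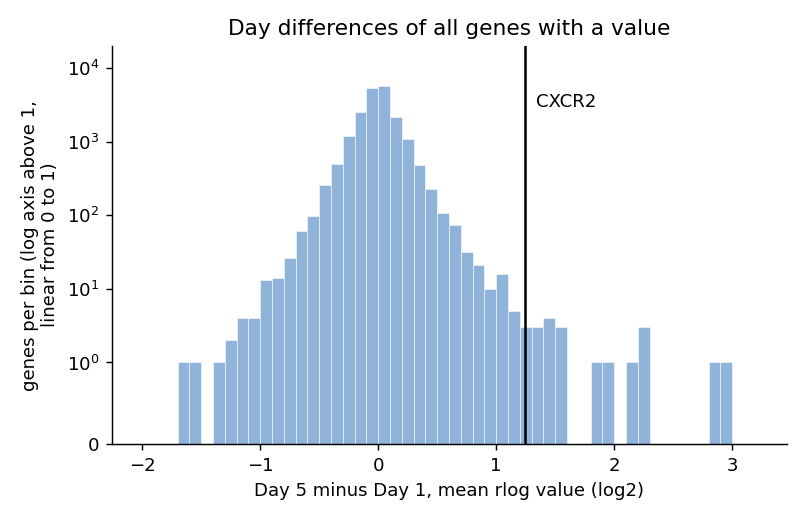
Distribution of the Day 5 minus Day 1 difference in mean rlog value (horizontal axis, log2) over 20046 genes, as genes per bin (vertical axis, logarithmic above 1 and linear below). The black line marks CXCR2 at 1.24, in the upper tail, with 18 genes beyond it.

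A measure of the libraries themselves also went 1 way in every fetus. The most abundant gene, which carries no symbol, took up much of each library when rlog values were turned back to a linear scale (2 to the power of the rlog value). Its share of the summed linear values was 67.95% ± 2.63 (SD, n = 5) for Day 1 and 64.1% ± 3.16 (SD, n = 5) for Day 5. Its share was lower on Day 5 in 5 of 5 fetuses, but the difference of -3.84 percentage points did not pass a two-sided exact permutation test (p = 0.0794). An exact sign-flip test within fetuses gave p = 0.0625, and 5 pairs can give no smaller p. With this share as a covariate the CXCR2 log2 difference was 1.09 (SE 0.28). What part the share has in the CXCR2 values was not tested beyond this fit.

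The authors' pooled means place CXCR2 on a different scale. These are least-squares means over the libraries of each day, on a normalized linear scale, and have no error. The authors' mean for CXCR2 was 7.13 on Day 1 and 50.6 on Day 5, with a total of 289 over all libraries. Day 5 thus held 87.7% of the sum of both means, the share used here to describe a pooled change. By this share CXCR2 stood at position 8 of the 80 genes, counted from the highest. Counted from the lowest, its Day 1 mean stood at position 2 of 80 and its total at position 14. The share thus rests on a low Day 1 value. Linear rlog values of CXCR2 ran from 23.3 to 30.7 on Day 1 and from 38.95 to 98.6 on Day 5, and put 71.3% of the sum of both means on Day 5. For 18 of the 18 table genes that could be followed, the rlog values gave a narrower gap between the days than the pooled means. The size of the CXCR2 change thus depends on which values are used. Rlog values are drawn toward the mean of each gene, and the normalization of the pooled means is not given. What part either has in the gap was not tested.

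IL21R lies on the plus strand of chromosome 24 in ARS-UI_Ramb_v2.0, from 25486436 to 25522525, a span of 36090 bases. In the later assembly its RefSeq neighbours are IL4R, which encodes a receptor chain for interleukin 4, and GTF3C1. The authors' mean for IL21R was 73.5 on Day 1 and 206 on Day 5, with a total of 1400 over all libraries. Day 5 held 73.7% of the sum of both means, position 45 of 80 from the highest. IL21R was thus higher on Day 5, with a smaller Day 5 share than CXCR2. Of the 80 table genes, 59 had a higher pooled mean on Day 5 and 21 a lower one, and the median Day 5 share of the 59 was 77.5%. CXCR2 was above that median and IL21R below it. How IL21R varied between fetuses was not analysed here.

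**Figure D3:**
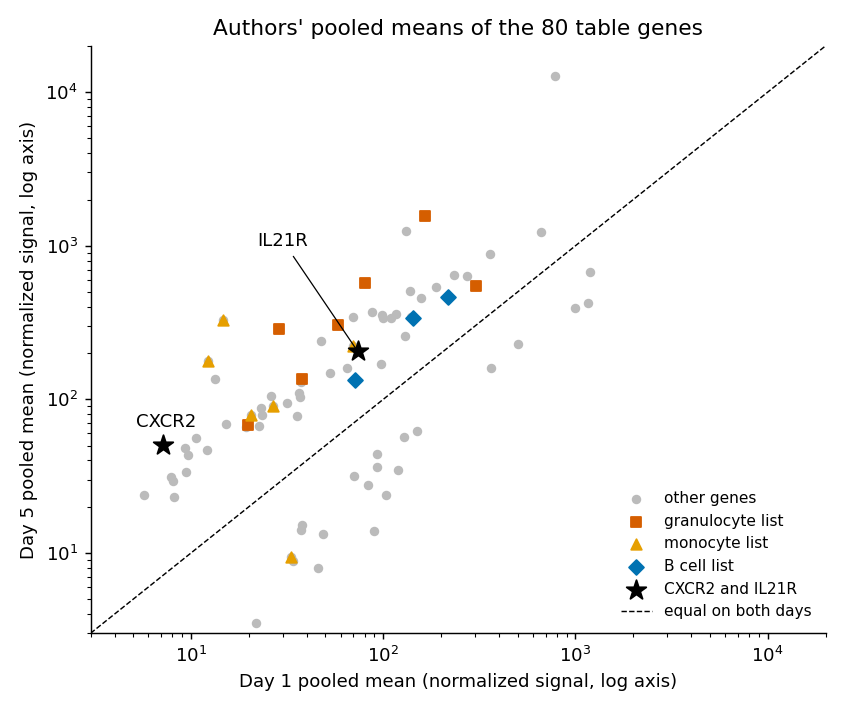
Authors' pooled mean on Day 1 (horizontal axis) against Day 5 (vertical axis) for 80 genes, both in normalized signal on log axes, with 1 point per gene and no error. Black stars mark CXCR2 (7.13 and 50.6) and IL21R (73.5 and 206), both above the dashed line of equal means, and colours mark the granulocyte, monocyte and B cell lists.

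The partners of each receptor were mostly outside the 80 genes, which are few beside the 30620 genes listed by library. Of 17 genes on the CXCR2 axis (receptors, CXC chemokine ligands, kinases, arrestins and downstream signalling), 3 had a pooled value, and CXCR2 was the only receptor among them. NFKBIA, the inhibitor that holds NF-kappa B in the cytoplasm, had an authors' mean of 273 on Day 1 and 636 on Day 5. MAPK3, the kinase ERK1, had an authors' mean of 362 on Day 1 and 160 on Day 5. The downstream genes of the axis therefore lay on both sides, 1 higher and 1 lower. Of 14 genes on the IL21R axis (the cytokine, the shared receptor chain, JAK and STAT proteins and their targets), 2 had a pooled value and both were higher on Day 5, as were 59 of the 80 table genes. A pooled value itself means that the authors' comparison selected the gene, and 1 of the 2 is IL21R, so neither axis count is a result about the pathway. The other gene was EBI3, a subunit of the cytokines interleukin 27 and interleukin 35, with an authors' mean of 5.69 on Day 1 and 23.8 on Day 5. The other members of both lists were not analysed here, because the per-library table pairs no symbols with identifiers.

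Neutrophils carry CXCR2, and a list of granulocyte markers was looked up beside it, in cells from a density gradient that leaves most granulocytes behind. Of 15 granulocyte markers, 7 had a pooled value, and 7 of 7 were higher on Day 5, where 59 of all 80 table genes were. These counts too describe the 80 selected genes, beside 30620 listed by library, and are not a result about the markers. Their authors' means summed to 691 on Day 1 and 3476 on Day 5, with a median Day 5 share of 84.1%. Of these 7, the highest pooled mean of Day 5 belonged to S100A9, a subunit of calprotectin, at 164 on Day 1 and 1560 on Day 5. Its partner S100A8 had 28.8 on Day 1 and 286 on Day 5, and the related calcium-binding protein S100A12 had 80.7 and 571. NCF1 and CYBA, which encode subunits of the phagocyte NADPH oxidase, had 58.1 and 307, and 302 and 548. MMP25, a membrane-bound metalloproteinase of leukocytes, had 19.9 and 68.5, and VNN2, a vanin on neutrophils, had 37.7 and 135. The other 8 markers, among them CXCR1, CSF3R and MPO, were not analysed here. Day 5 held 83.4% of the summed means of this list and 83.7% of those of the monocyte list described next. Whether the transcripts of this list came from granulocytes or from monocytes was not tested. In bulk PBMCs, more cells of a type and more RNA per cell cannot be told apart, and the part of granulocytes in the CXCR2 values was not tested.

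Markers of the cells that PBMCs are made of were among the 80 genes as well. Of 10 monocyte markers 6 had a pooled value, 5 higher and 1 lower on Day 5 (59 higher and 21 lower over the table), with a sum of 177 on Day 1 and 909 on Day 5. The complement genes C1QA (14.6 and 330) and C1QB (12.2 and 178), the Fc receptor gene FCGR3A (69.3 and 221), MS4A7 (20.6 and 79.2) and the nuclear receptor gene NR1H3 (26.6 and 90.9) were higher, and CD93 (33.3 and 9.41) was lower. B cells carry IL21R, and of the 5 B cell markers used here 3 had a pooled value and 3 of 3 were higher on Day 5, again beside 59 of 80 over the table, with a sum of 431 on Day 1 and 938 on Day 5. CD79B, a chain of the B cell receptor complex, had the highest pooled mean of these on Day 5, at 217 on Day 1 and 467 on Day 5. MS4A1, which encodes the B cell surface protein CD20 (143 and 338), and the surrogate light chain gene IGLL1 (71.2 and 133) were the others. The median Day 5 share was 68.3% for the B cell markers, below the 73.7% of IL21R, and 78.4% for the monocyte markers. Of 8 erythroid markers 1 had a pooled value, XK, at 45.8 on Day 1 and 7.93 on Day 5. None of 8 T and natural killer cell markers or 4 platelet markers had one. Only 80 genes have a pooled value, beside 30620 listed by library, so the number of markers with one is no result about the cells. The part of monocytes or B cells in the values of either receptor was not tested. All of these genes were selected by the authors on the same day contrast, so their direction is not independent of the choice of the receptors.

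Both receptors also belong to K-cluster 1, a group of interacting genes that the paper drew from the same contrast. The 12 of them used here were higher on Day 5 in the pooled means, which the choice of the group fixes, and their sums were 928 on Day 1 and 4116 on Day 5. Beyond the receptors, the S100 genes, VNN2, FCGR3A, MS4A7 and the B cell markers, the group holds FGL2, a fibrinogen-like protein of leukocytes, at 15.2 on Day 1 and 69.4 on Day 5.

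Of the named table genes, 6 including CXCR2 could be followed by fetus. The mean rlog value of S100A9 went from 8.81 ± 0.32 (SD, n = 5) to 11.01 ± 0.91 (SD, n = 5) between Day 1 and Day 5, and its change ran from 1.52 in fetus 1 to 2.92 in fetus 4. That of FCGR3A went from 7.38 ± 0.40 (SD, n = 5) to 8.49 ± 0.55 (SD, n = 5), with changes from 0.54 in fetus 1 to 2.07 in fetus 3. GBP6, an interferon-induced GTPase gene, went from 8.63 ± 0.31 (SD, n = 5) to 9.83 ± 0.84 (SD, n = 5), with changes from 0.39 in fetus 1 to 1.87 in fetus 5. In these 3 genes, as in CXCR2, fetus 1 changed least. MS4A7 differed by 0.99 between the day means and IGLL1 by 0.63, and in both fetus 2 changed least. All 6 genes were higher on Day 5 in 5 of 5 fetuses, as were 14 of all 18 table genes that could be followed and 3.53% of all genes. The authors selected the table genes on this same contrast, so the direction is no result about them.

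**Figure D4:**
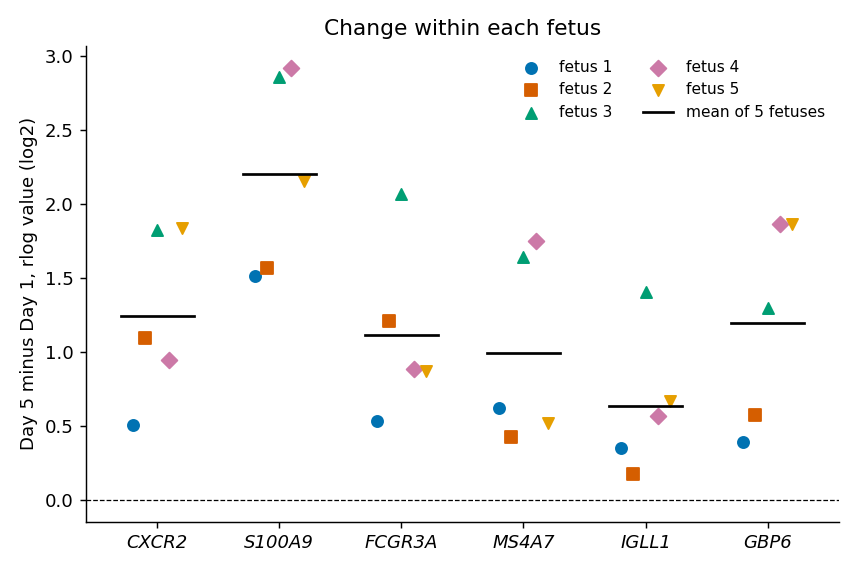
Day 5 minus Day 1 difference in rlog value (vertical axis, log2) within each of 5 fetuses for CXCR2 and 5 other table genes (horizontal axis), with 1 coloured marker per fetus and a black line at the mean. All markers lie above 0, and fetus 1 is the lowest for CXCR2, S100A9, FCGR3A and GBP6.

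Likeness to CXCR2 was measured as Pearson's r of rlog values over the 10 libraries, which are not independent because each fetus gave 2. An r above 0.9 was found for 30 genes (0.15%), and an r below -0.9 for 6. FCGR3A had an r of 0.91, S100A9 of 0.88, IGLL1 of 0.88, GBP6 of 0.87 and MS4A7 of 0.79. Any gene that differs between the days gains likeness from that alone, so r was also taken on deviations from the mean of each day. Within days r was 0.73 for FCGR3A, 0.68 for GBP6, 0.67 for IGLL1, 0.51 for S100A9 and 0.46 for MS4A7. FCGR3A was thus the most like CXCR2 of these 5 genes by both measures. Within days the r of S100A9, which was on the granulocyte list, was below those of FCGR3A, GBP6 and IGLL1 and above that of MS4A7. Differences between these r values were not tested. Over the 14 other table genes that could be followed and were higher on Day 5, the median r was 0.87, and 0.56 within days.

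By Pearson's r, the pair of identifiers most like CXCR2 over all genes was ENSOARG00020001104 (r = 0.97, and 0.89 within days) and ENSOARG00020010028 (r = 0.96, and 0.88 within days). The mean rlog value of ENSOARG00020001104 went from 2.83 ± 0.05 (SD, n = 5) to 3.46 ± 0.33 (SD, n = 5) between the days, and that of ENSOARG00020010028 from 8.43 ± 0.19 (SD, n = 5) to 9.28 ± 0.41 (SD, n = 5). Both were higher in 5 of 5 fetuses. Their Spearman's rho to CXCR2 was 0.87 and 0.89. Among the table genes that could be followed, 3 had a higher rho: a gene without a symbol (1.0, with r = 0.95, and 0.78 within days), FCGR3A (0.95) and another gene without a symbol (0.93). Which genes are most alike thus depends on the measure. The most opposed were ENSOARG00020020322 (r = -0.95, both over all libraries and within days) and ENSOARG00020025721 (r = -0.93, and -0.90 within days). ENSOARG00020020322 went from 7.29 ± 0.10 (SD, n = 5) to 7.005 ± 0.20 (SD, n = 5) and was lower in 5 of 5 fetuses. ENSOARG00020025721 went from 6.55 ± 0.12 (SD, n = 5) to 6.15 ± 0.29 (SD, n = 5) and was lower in 4 of 5. These 4 were picked for their r over the same libraries, so their r within days is not independent of that choice.

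On its chromosome CXCR2 had few table genes near it. Chromosome 2 held 5 of the 80, and the nearest to CXCR2 was IFI6, an interferon-induced gene, 19.2 Mb away, with authors' means of 47.4 on Day 1 and 239 on Day 5. IL21R lay in closer company, on chromosome 24 with 8 of the 80. NUPR1, a stress-induced chromatin protein gene, lay 1.07 Mb from it (13.4 on Day 1 and 136 on Day 5), and MAPK3 1.17 Mb. These genes near IL21R did not share a direction, since NUPR1 had a higher pooled mean on Day 5 and MAPK3 a lower one.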

How the data were processed

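PBMC libraries were grouped by the day in the sample labels, and the fetus in their titles pairs them, since each animal was sampled on both days. According to the submitters' notes and the paper, reads were checked with FastQC 0.11.9, aligned to ARS-UI_Ramb_v2.0 with STAR 2.7.3a and counted by strand with featureCounts 2.0.3. The authors deposited rlog values on the log2 scale. The authors also deposited, for 80 genes, the normalized signal of each day as a pooled least-squares mean and its total; the normalization behind it is not given in the sources used here. Further columns hold the fold changes, ratios and p-values of the comparison. No value of these columns is reported, but the fold changes served to match symbols to identifiers, as described below.

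Genes listed at 0 in all libraries were left out, and the other 20046 of 30620 were fitted with limma 3.58.1 in R 4.3.3 (mean-variance trend, no block, Benjamini-Hochberg adjustment), a fit tested on simulated data. Other values used numpy 2.4.6, pandas 2.3.3 and scipy 1.17.1, and figures matplotlib 3.10.9. The symbols of CXCR2 and 5 other genes listed by identifier came from the paper, by matching the fold changes it lists to the deposited ones, and rest on that match. A RefSeq table of ARS-UI_Ramb_v3.0 was used for gene neighbours; it matched 0 of the 30620 identifiers.

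Named genes were the receptors, those genes of the marker lists, axis lists and K-cluster 1 that have a pooled mean, and the 2 identifiers with the highest and the 2 with the lowest r to CXCR2. GBP6, IFI6 and NUPR1 were named after their values were seen. The members and lists were chosen with earlier results of these data known. Of the lists, 1 gene is not reported here and was left out of their counts and sums. The alternatives were a replicate block, removal of the lowest 25% of genes, both together, quantile normalization, median centring, no trend, a covariate, other fold thresholds, medians, other measures of likeness and leaving out each fetus.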

Additional observations from a re-analysis of the deposited data

Results flagged for a closer look

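In 2 of the 32 groups of 5 values checked, 1 library stood far from the others, where chance gives about 1 in 20, or 1.6 groups. Both were Day 1 values of identifiers named for their likeness to CXCR2. ENSOARG00020010028 had a lowest Day 1 rlog value of 8.088, and its gap to the nearest library was 0.754 of the range of that day. ENSOARG00020025721 had a lowest Day 1 rlog value of 6.336, with a gap of 0.862 of the range. No day of CXCR2 held such a library.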

How the results depend on the processing

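The CXCR2 log2 difference ran from 1.09 to 1.43 over 11 alternatives; its direction is fixed by the choice of the gene and by days that do not overlap. It was 1.10 as a difference of medians and 1.32 from mean linear values, the alternative added after seeing the data. With the fetus as a replicate block it stayed 1.24 (SE 0.21). The share of the most abundant gene stayed lower on Day 5, with a difference of -2.29 percentage points for the 10 most abundant genes and from -4.33 to -2.95 with 1 fetus left out, and passed no test. The number of genes that passed limma's adjusted p and fold change depended on the setting. Against 4 genes, all higher, the replicate block gave 27 (22 higher, 5 lower), removal of the lowest 25% of genes 17, both together 140 (86 higher, 54 lower), and median centring 19 (16 higher, 3 lower). Quantile normalization gave 1 (higher) and the share as covariate 1 (lower). Without the trend limma gave 0, with 1302 genes at an unadjusted p under 0.05, against 1110 with it. With 1 fetus left out it gave from 0 to 6: 6 without fetus 1 and 0 without fetus 2, 3, 4 or 5, where 1008, 896, 785 and 935 genes had an unadjusted p under 0.05. The cause was not tested. Genes with an r above 0.9 to CXCR2 numbered 30 by Spearman's rho too, without either of the most alike identifiers, and 16 within days, of which 1 was among the 30 of Pearson's r. IL21R has pooled values only, so no paired analysis or alternative could be run for it. Depth is unknown, and precision rests on 5 fetuses.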

Other observations

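CXCR2 and S100A9, which was on the granulocyte list, did not rank all fetuses alike. Whether the 2 transcripts came from the same cells was not tested. On Day 5 fetus 1 was lowest and fetus 2 next lowest in both genes, and fetus 1 changed least in both. Their Spearman's rho over the 10 libraries was 0.78. In fetus 5 CXCR2 had its highest Day 5 rlog value, 6.62, and a change of 1.84, while S100A9 stood at 10.83 with a change of 2.16. In fetus 4 S100A9 changed most, by 2.92 to 11.73, while the change of CXCR2 was 0.94. The contrast between these fetuses was seen in the values and was not tested.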
